A study of Caenorhabditis elegans with 2 samples.

Results

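The genes described here are 45 protein-coding genes of the C. elegans cell cycle and of DNA replication, out of 19973 nuclear protein-coding genes. They were chosen by name, with earlier results of these data known. For each of them, peaks of the HMG-box protein HMG-1.2 at the promoter were looked up in chromatin immunoprecipitation sequencing (ChIP-seq) data, which recover the DNA that a protein is attached to in fixed tissue. The single group was whole young adult worms of strain RW12210, aged 65 h and synchronised as starved L1 larvae after bleaching. Their own hmg-1.2 gene on chromosome III carried a TY1, EGFP and 3xFLAG tag inserted by CRISPR, and the labels name an anti-GFP antibody in one field and hmg-1.2 in another. The 2 libraries are numbered as biological replicates 1 and 2, with no statement on separate cultures, and untagged or input controls were not analysed here. With 1 group and peak lists only, no test between conditions is possible. The main counts stand beside the same count over all protein-coding genes.

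In every division cycle, the origin recognition complex marks where DNA synthesis can begin, and CDC-6 and CDT-1 load the MCM helicase there. Cyclin-dependent kinases (CDKs) with their cyclins then start replication and, later, mitosis, while inhibitors, phosphatases and the anaphase-promoting complex set the order of these steps. In the adult hermaphrodite the somatic cells no longer divide as a rule, and the germline is the main dividing tissue and also stocks oocytes with these products for the embryo. Whole animals mix both, so the tissue behind a peak cannot be told apart.

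A gene was called bound when a peak's summit, its highest point, fell in a window that starts 500 bp before an annotated 5′ end of any of its transcripts and stops 100 bp past it. By that rule 18 of the 45 genes (40%) were bound in the authors' conservative set of 4149 peaks, against 9.68% of all protein-coding genes. Replicate 1's own thresholded list of 3340 peaks held 11 of the 45 (24.4%), against 6.91% of all genes. Replicate 2's list of 5333 peaks held 26 (57.8%), against 13.3%. The share of these genes was above the share of all genes in each list, and 11 of the 45 (24.4%) were in both replicates' lists, against 6.10% of all genes. All 11 genes of replicate 1 were in replicate 2's list, as were 88.3% of all genes bound in replicate 1. The 45 genes were chosen with earlier results of these data known, so these shares are descriptions and no enrichment was tested. Sequencing depth is unknown, so the different lengths of the replicates' lists are not read as biology.

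Of the 6 genes for origin licensing, 5 were bound, and so were 5 of the 6 genes for the MCM helicase. The other 33 genes fell into 7 roles with 0 to 2 bound genes each. GINS and CDC-7, DNA synthesis and nucleotide supply, and the cyclin-dependent kinases each had 1 of 4 bound, and the cyclins 1 of 7. CDK inhibitors, phosphatases and the checkpoint kinase CHK-1 had 2 of 7, the mitotic kinases 2 of 4, and the anaphase-promoting complex 0 of 3. These counts moved with the setting. Licensing had 3 with the nearest 5′ end only and 2 among the 2074 peaks of highest signal, and the MCM genes had 2 among those peaks. The 6 licensing genes leave out the ORC subunit genes orc-3 and orc-4, neither of which was bound in the conservative set. The difference between roles was not tested.

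**Figure D1:**
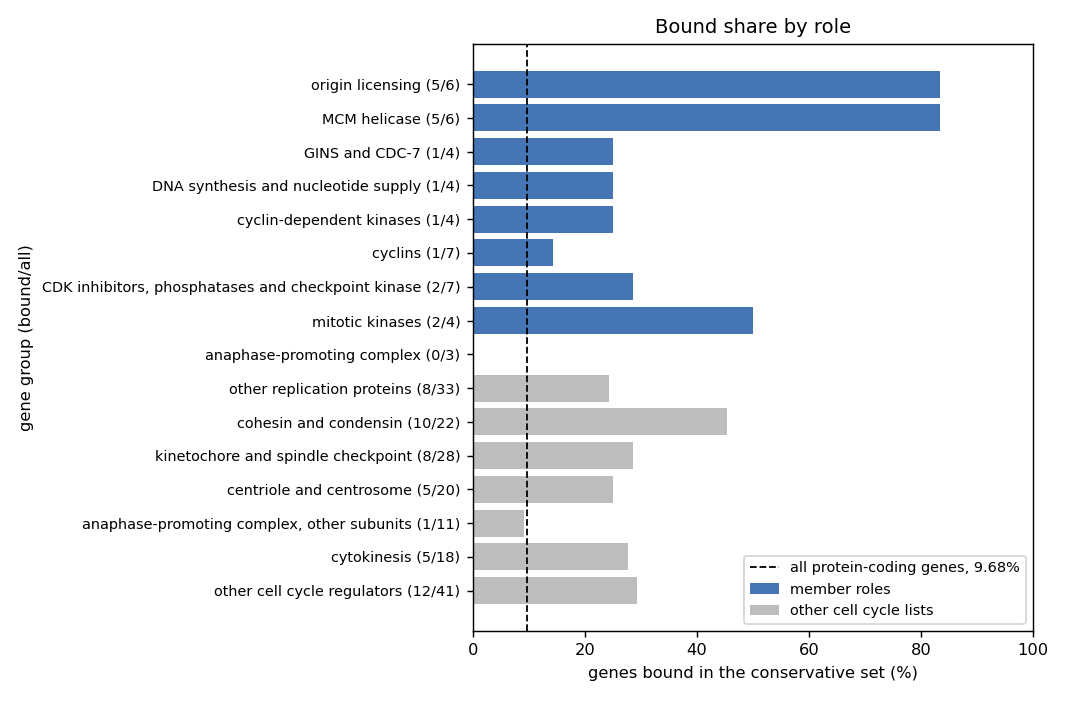
Bars give the percentage of genes bound in the conservative set (x axis) for each role among the 45 genes (blue) and for 7 lists of other cell cycle genes (grey), with bound and total counts in brackets. The dashed line is the 9.68% of all protein-coding genes. Origin licensing and the MCM helicase, each with 5 of 6 bound, stand at 83.3%. The unbound ORC genes orc-3 and orc-4 are counted with other replication proteins (grey) and not with licensing.

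The strongest peak among these genes was at orc-1, which encodes the ORC subunit related to CDC-6 (WBGene00012650; peak at chrIII:10642799-10643132, ce11). Its summit was upstream of the 5′ end, at -180 bp in the conservative set, at -180 bp in replicate 1 and at -172 bp in replicate 2. The authors' signal value, whose scale is not stated and which is used only within a list, was 2295 in the conservative set (rank 75 of 4149). In the replicates' own lists the peak had rank 83 of 3340 (signal 915) and rank 83 of 5333 (signal 1385). The orc-1 promoter was therefore near the top of all lists, at 1.81% from the top of the conservative one. The same summit was at -84 bp from the divergent gene dhs-11, so that orc-1 was no longer bound when each summit was given only to its nearest 5′ end.

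The loading factor gene cdt-1 had the next strongest licensing peak (chrI:3227994-3228255), with a signal of 1118 (rank 291) and a summit at -23 bp. Replicate 1 placed the summit at -3 bp (rank 547) and replicate 2 at -23 bp (rank 234). This was the only one of the 18 summits within 100 bp of the 5′ end. The cdc-6 peak was weaker, with a signal of 179 (rank 2625) at -263 bp and summits at -280 and -281 bp in the replicates. It too was nearer to a neighbour, at -116 bp from acin-1, and was lost with the nearest 5′ end only.

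Geminin, encoded by gmn-1, is the inhibitor of CDT-1, and its promoter was bound in both replicates at low signal. Its signal was 131 (rank 3290) at -138 bp, with ranks of 2702 and 4255 in replicates 1 and 2. For orc-5 the signal was 111 (rank 3616, summit at -118 bp), the lowest among the 18 genes. It was in the thresholded list of replicate 2 alone (rank 3797). Among the ORC genes of the 45, orc-2 had no summit in its window in any of the 8 deposited lists, and its nearest conservative summit was at -4964 bp.

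The 6 MCM genes encode the subunits of the ring that unwinds DNA at the fork, and their peaks differed in strength. The mcm-6 peak (chrIII:9794010-9794291) had a signal of 1257 (rank 233) at -212 bp, with replicate summits at -222 bp (rank 247) and -210 bp (rank 280). The mcm-2 peak (chrII:12006791-12006951) had a signal of 316 (rank 1578) at -234 bp, with replicate summits at -241 bp (rank 1763) and -237 bp (rank 1569). The mcm-7 peak (chrV:4346951-4347060) had a signal of 203 (rank 2365) at -165 bp, with ranks of 2564 and 2437 in the replicates. These 3 genes were thus in the thresholded list of both replicates.

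The mcm-4 peak was also in both replicates, with a signal of 174 (rank 2688) at -152 bp and ranks of 2359 and 2835. That of mcm-5, with a signal of 131 (rank 3292) at -202 bp, was thresholded in replicate 2 alone (rank 3481). In replicate 1 a summit at -204 bp appeared only in the ranked list, which holds peaks of any score (rank 5138 of 39515). The sixth gene, mcm-3, was not in the conservative set. Replicate 2 had a summit at -132 bp (signal 137, rank 2559) and the authors' other thresholded set one at -138 bp (signal 151, rank 3263 of 6058), while replicate 1 had none in its window in either list. All 6 MCM genes were thus bound in replicate 2 and 4 of them in replicate 1.

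**Figure D2:**
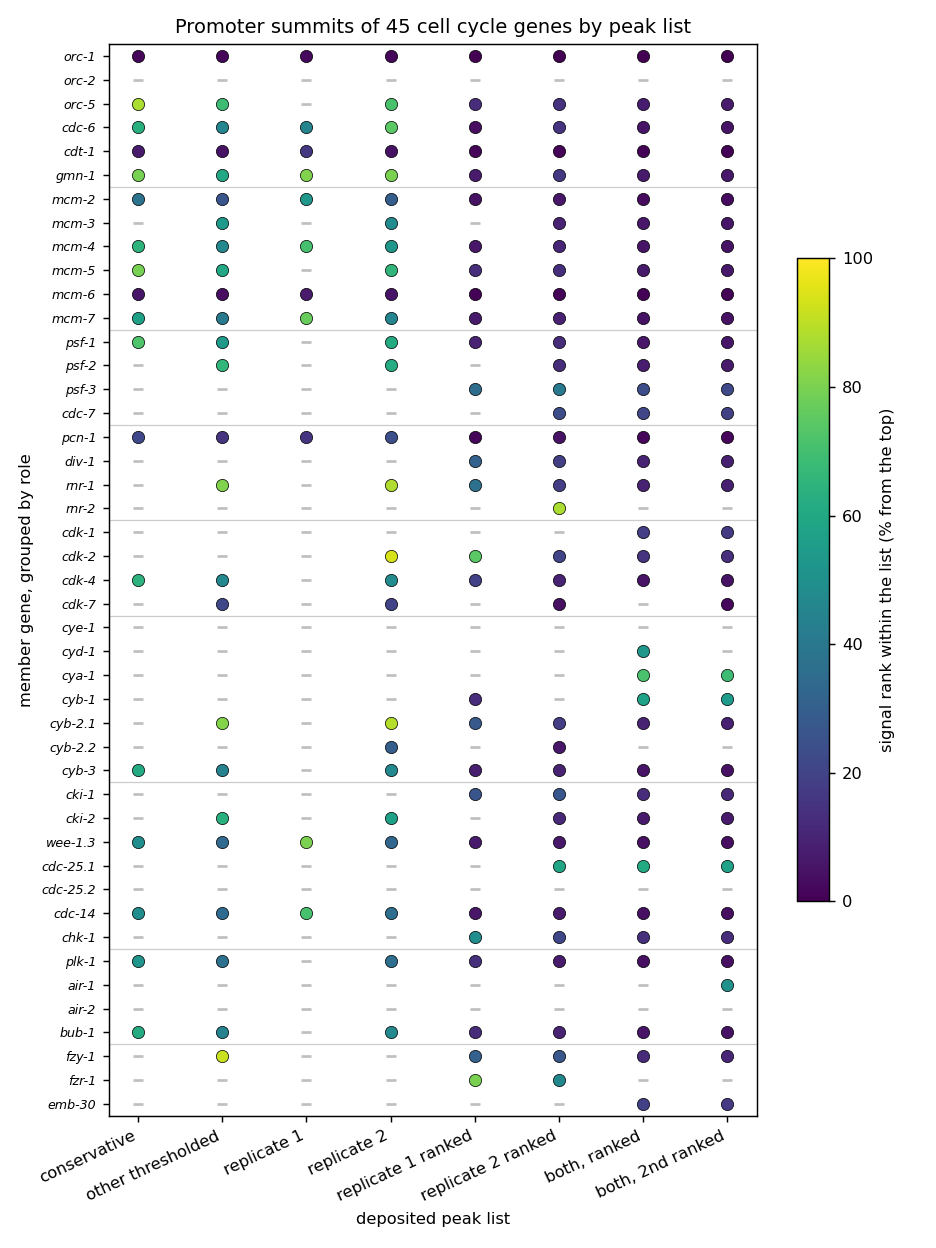
Each row is 1 of the 45 genes, grouped by role in the order origin licensing, MCM helicase, GINS and CDC-7, DNA synthesis, kinases, cyclins, regulators, mitotic kinases and anaphase-promoting complex. Each column is 1 of the 8 deposited lists, a circle marks a summit in the promoter window, its colour gives the signal rank within that list (percent from the top), and a grey dash marks none. The orc-1 row is dark throughout, and the rows of orc-2, cye-1, cdc-25.2 and air-2 hold no circle.

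Of the genes for GINS and CDC-7, which act after loading, 1 of 4 was bound. The GINS subunit gene psf-1, whose product joins the helicase when origins fire, had a peak with a signal of 151 (rank 3014) at -169 bp. Its replicate 2 summit was at -171 bp (rank 3265), and in replicate 1 a summit at -170 bp was in the ranked list only. The other GINS gene psf-2 had a summit at -350 bp in replicate 2 (rank 3280) and none in replicate 1, while psf-3 and the origin-firing kinase gene cdc-7 had low-ranked summits only. For cdc-7 this was at -198 bp in replicate 2's ranked list (rank 6313 of 27035).

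The sliding clamp gene pcn-1, which encodes PCNA, was the only bound gene of the 4 for DNA synthesis and nucleotide supply (peak at chrIV:4049596-4049825). Its summit lay at -257 bp in the conservative set and in both replicates, with a signal of 512 (rank 898). The ranks were 511 in replicate 1 and 1285 in replicate 2. For the large ribonucleotide reductase subunit gene rnr-1, replicate 2 had a summit at -95 bp (rank 4694). The polymerase alpha-primase gene div-1 and the small ribonucleotide reductase gene rnr-2 appeared only in ranked lists. Thus 1 of these 4 genes was bound in both replicates.

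The sequence around the summit is shown for 8 bound genes, because the motif counts that follow are read from such windows. These are the 8 of highest signal whose window of 50 bp either side of the summit overlaps no annotated exon. Each runs 5′ to 3′ on the gene's strand with the summit in the middle, from the WBcel235 (ce11) genome. Capitals mark matches to TTTNNCGC, a loose form of the site of E2F-family factors, on either strand (the other strand reads GCGNNAAA).
orc-1, chrIII:10642899-10642999, plus strand: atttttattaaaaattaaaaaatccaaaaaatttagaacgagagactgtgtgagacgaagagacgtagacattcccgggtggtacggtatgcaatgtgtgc
mcm-6, chrIII:9794105-9794205, plus strand: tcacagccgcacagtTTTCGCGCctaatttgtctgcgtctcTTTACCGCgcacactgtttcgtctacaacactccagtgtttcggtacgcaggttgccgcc
pcn-1, chrIV:4049655-4049755, minus strand: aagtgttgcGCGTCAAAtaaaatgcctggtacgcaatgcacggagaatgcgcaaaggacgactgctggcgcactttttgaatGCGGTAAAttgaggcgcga
mcm-2, chrII:12006809-12006909, minus strand: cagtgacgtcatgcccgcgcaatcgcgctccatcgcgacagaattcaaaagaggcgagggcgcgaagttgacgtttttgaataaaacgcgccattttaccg
wee-1.3, chrII:9716780-9716880, minus strand: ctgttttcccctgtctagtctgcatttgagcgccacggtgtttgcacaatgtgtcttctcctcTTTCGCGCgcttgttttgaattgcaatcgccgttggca
cdc-14, chrII:5593688-5593788, minus strand: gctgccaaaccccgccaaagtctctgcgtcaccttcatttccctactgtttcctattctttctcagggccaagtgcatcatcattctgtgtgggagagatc
plk-1, chrIII:8101088-8101188, plus strand: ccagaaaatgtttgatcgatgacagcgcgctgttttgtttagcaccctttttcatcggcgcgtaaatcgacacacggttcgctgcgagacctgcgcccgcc
mcm-7, chrV:4346951-4347051, plus strand: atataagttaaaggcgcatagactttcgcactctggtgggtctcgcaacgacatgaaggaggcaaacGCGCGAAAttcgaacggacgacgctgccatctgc

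A match to TTTNNCGC was present in 8 of the 18 summit windows of bound genes (44.4%), against 12.9% of the windows at the summits of all 1934 bound protein-coding genes. In windows of the same length placed at -206 bp from every protein-coding gene, the share was 6.75%. At that fixed place the 18 bound genes had 33.3% and the 27 unbound genes 25.9%. Unbound here means absent from the conservative set. Of these 27, 9 were in another thresholded list and 14 in a ranked list only. Both groups of cell cycle genes were thus above the share of all genes at the same position. However, -206 bp is the median summit distance of the 18 bound genes, so most of their fixed windows overlap their summit windows. Their 33.3% is therefore not independent of their 44.4%, and the fixed place is not a neutral one for them. The windows printed above with capitals are those of mcm-6, pcn-1, wee-1.3 and mcm-7.

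The letters TTTGAA, the core of the cell cycle homology region element that the DREAM complex subunit LIN-54 binds, were present on either strand in 9 of the 18 windows (50%). All bound genes had 15% at their summits, and all genes 29.8% at -206 bp. At this fixed position the bound genes had 38.9% and the unbound genes 25.9%. Because of the same overlap of windows, the 38.9% is not independent of the bound genes' 50% at their summits. The 2 motifs occurred together in 5 windows and at least 1 of them in 12, with 0 overlapping matches. The pcn-1 and wee-1.3 windows hold both.

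Other letters did not follow that pattern. GAGAGA was in 2 of the 18 windows, against 33.8% at the summits of all bound genes and 7.26% of all genes at -206 bp. ACAAAG, the core of TCF and SOX sites, which are HMG-box factors, was in 1 window (5.56%), against 4.14% of all bound genes. The median GC content of the 18 windows was 51.5%, against 47.5% for all bound genes. At -206 bp it was 42.1% for the bound genes, 29.7% for the unbound genes and 33.7% for all genes. Here too the bound genes' value is not independent of that at their summits. The part of GC content in the motif shares was not tested. A match describes letters in a window, not occupancy by a factor.

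**Figure D3:**
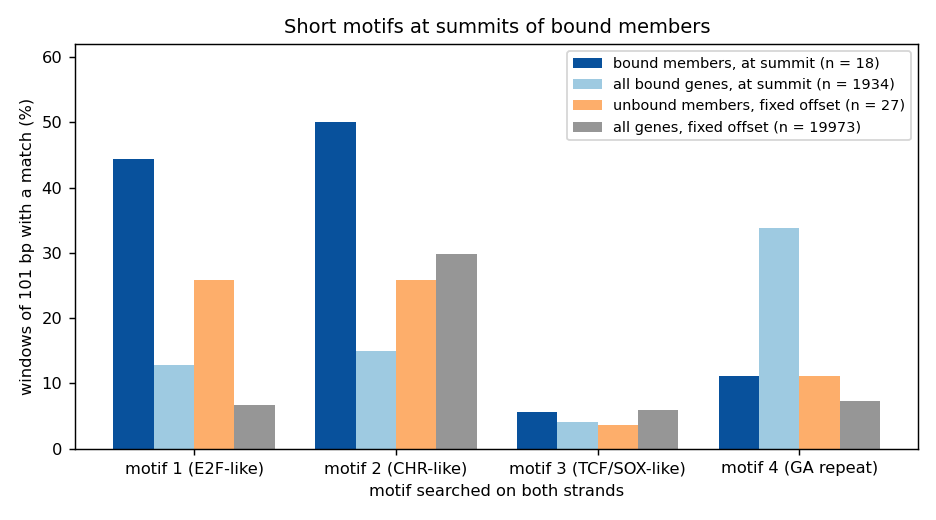
Bars give the percentage of windows of 50 bp either side of the summit or of the fixed position (y axis) with a match on either strand to 4 motifs, namely the E2F-like TTTNNCGC, TTTGAA of the cell cycle homology region (CHR-like), the TCF/SOX-like ACAAAG and the repeat GAGAGA. The 18 bound genes stand at 44.4% and 50% for the E2F-like and CHR-like motifs, above the 12.9% and 15% of all bound genes. All genes at the fixed position stand at 6.75% and 29.8%.

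Of the kinases and cyclins that drive the cycle, 1 of 4 CDK genes and 1 of 7 cyclin genes were bound in the conservative set, 3 and 3 in replicate 2's list and 0 and 0 in replicate 1's. Of the CDKs, cdk-4, the partner of cyclin D, had a peak with a signal of 176 (rank 2664) at -332 bp, with replicate 2's summit at -372 bp (rank 2545). Replicate 1 held only a ranked summit at -346 bp (rank 7411), and the conservative score of this peak, 848, was close to the lowest of that set, 830. Its gene was the only 1 of the 45 on the X chromosome. The CDK-activating kinase gene cdk-7 had a summit at -48 bp in replicate 2 with rank 1052, and a signal of 380 (rank 1319) in the other thresholded set, but no summit in its window in replicate 1 at any rank.

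For cdk-2, the partner of cyclin E, replicate 2 had a summit at -104 bp near the end of its list (rank 5001). The mitotic kinase gene cdk-1 had a summit in its window only in the ranked lists over both replicates, at -97 bp (rank 9427 of 52039 in the list that holds the conservative peaks), and a conservative summit at -607 bp. Of the cyclins, cyb-3, a B-type cyclin gene, was bound with a signal of 189 (rank 2525) at -146 bp. Replicate 2 had its summit at -151 bp (rank 2500), and replicate 1 at -159 bp in the ranked list alone (rank 3366).

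The other B-type cyclin genes had thresholded summits in replicate 2 or none. Those of cyb-2.1 at -245 bp (rank 4736) and cyb-2.2 at -204 bp (rank 1567) were in replicate 2's thresholded list. These are close copies of each other, and how reads were placed between such copies is not given in the sources used here. The cyb-1 gene lies head to head with orc-5, 627 bp apart, and the orc-5 summit was at -510 bp from cyb-1, just outside its window. The cyclin D gene cyd-1 and the cyclin A gene cya-1 had a summit only in a ranked list over both replicates. The cyclin E gene cye-1 had none in its window, but a conservative summit within the gene, at -584 bp from an inner 5′ end. The bound gene with its summit farthest from the 5′ end was wee-1.3, at -363 bp. The summits named for cyb-1, cye-1 and cdk-1 lay past the rule's limit of 500 bp. That of cdk-1, at -607 bp, also lay past the near end of iff-1, a divergent gene 278 bp upstream.

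Among the regulators of CDKs, wee-1.3 and cdc-14 were bound in both replicates. WEE-1.3 is the kinase that holds CDK-1 inactive in oocytes. Its peak had a signal of 249 (rank 2017) at -363 bp, with replicate 2's summit at -355 bp (rank 1756) and replicate 1's at -447 bp (rank 2681). This gap of 92 bp was the widest between replicates, and the median gap over the 11 genes in both was 12 bp. CDC-14, a phosphatase known in worms for keeping precursor cells quiescent, had a summit at -311 bp with a signal of 247 (rank 2027), and the replicates put it at -310 bp (rank 2373) and -311 bp (rank 1915).

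The CDK inhibitor genes cki-1 and cki-2 were not in the conservative set. A summit of cki-2 at 60 bp downstream of a 5′ end was in replicate 2's list (rank 3055), the only downstream summit among these genes there. That of cki-1, at -172 bp in replicate 2 and -190 bp in replicate 1, was in the ranked lists only. The CDK-activating phosphatase genes cdc-25.1 and cdc-25.2 and the checkpoint kinase gene chk-1 were not thresholded in any list, and cdc-25.2 had no summit at all.

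Of the mitotic kinase genes, plk-1 and bub-1 were bound. PLK-1 is the polo kinase of mitotic entry and the spindle, and its summit was at -210 bp in the conservative set and in replicate 2, with a signal of 227 (rank 2167) and a replicate 2 rank of 1902. Replicate 1 had a summit at the same place in its ranked list (rank 5506). The spindle checkpoint kinase gene bub-1 had a signal of 188 (rank 2532) at -220 bp, with rank 2508 in replicate 2 and a ranked summit at -209 bp in replicate 1. This summit also lay at -439 bp from the divergent gene lin-61. Of the Aurora kinase genes, air-2 had no summit in its window in any list, and air-1 had one only in the second ranked list over both replicates, at -172 bp (rank 29015 of 57988).

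None of the 3 genes of the anaphase-promoting complex was in the conservative set. The activator gene fzy-1 had a summit within the gene, at -436 bp from an inner 5′ end, in the other thresholded set (rank 5577 of 6058). The activator gene fzr-1 and the subunit gene emb-30 had only ranked summits. The 18 of the 45 genes with no summit in any thresholded list thus include 2 of these 3, together with both Aurora kinase and both CDC-25 phosphatase genes.

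Seen over all lists, 11 of the 45 genes were bound in the conservative set and in both replicates, and 7 in the conservative set and replicate 2. These 7 were orc-5, mcm-5, psf-1, cdk-4, cyb-3, plk-1 and bub-1, and each had a lower-ranked summit in its window in replicate 1's ranked list. For orc-5 that summit was at -222 bp, against -118 bp in the conservative set. The conservative set is drawn over both replicates, so these ranked summits are not independent of it. A further 9 genes were in another thresholded list only, 14 in a ranked list only, and 4 in none. The other thresholded set bound 25 of the 45 (55.6%), against 13.7% of all genes. In the ranked list that holds the conservative peaks 36 had a summit (80%), against 38.3%, and 27 had one in both replicates' ranked lists (60%), against 21.7%. In at least 1 list there were 41 (91.1%), against 48.6% of all genes.

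All 18 summits lay upstream of the 5′ end, as did 94.9% of those of all bound genes, and between protein-coding genes, with a median of -206 bp, quartiles of -251 and -155 bp, and a range of -363 to -23 bp. For all 1934 bound protein-coding genes the median was -192 bp with quartiles of -303 and -105 bp. From 100 to 400 bp upstream lay 17 of the 18 summits (94.4%), against 66.6% over all bound genes. In the 11 genes bound in both replicates, the replicates' summits were within 30 bp of each other in 9.

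**Figure D4:**
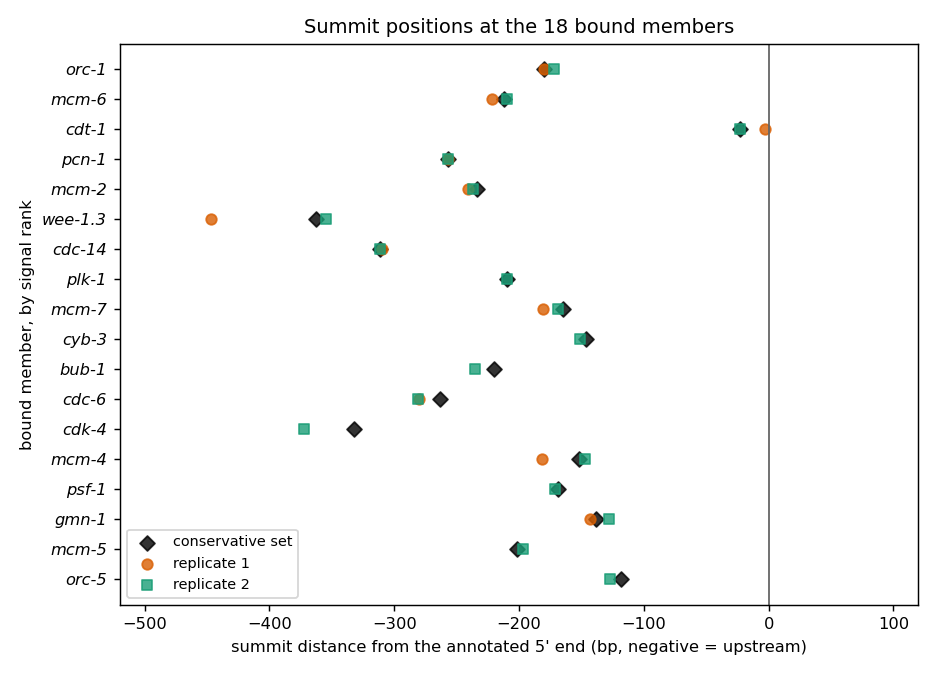
Points give the distance of each summit from the annotated 5′ end in bp (x axis, negative is upstream) for the 18 bound genes, ordered by signal, in the conservative set (black diamonds) and in the thresholded lists of replicate 1 (orange circles) and replicate 2 (green squares). The 17 summits other than that of cdt-1 lie between -363 and -118 bp in the conservative set, and wee-1.3 shows the widest gap between replicates.

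In the conservative set the peaks were mostly of middle or low rank. The median signal of the 18 was 196, against 260 for all bound genes, and their median rank was 58.9% from the top of the list, against 46.6%. In replicate 1's list the median rank was 52.8%, against 45.5%. Replicate 2's list did not show this, with a median rank of 47.4% against 48.8% and a median signal of 138 against 134. Among the 2074 conservative peaks of highest signal, 7 of the 45 genes remained bound (15.6%), against 5.19% of all genes. These were orc-1, mcm-6, cdt-1, pcn-1, mcm-2, wee-1.3 and cdc-14.

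Bound genes had divergent and same-strand neighbours. Of the 30 genes with a divergent neighbour upstream 12 were bound, and of the 14 with a neighbour on the same strand 6. A bound gene's summit lay in another protein-coding gene's window in 5 of 18 cases (27.8%), against 34.6% of all bound genes. These 5 were orc-1, cdc-6, cdk-4, psf-1 and bub-1, each with a divergent partner. None of the 18 summits had a tRNA, snRNA, snoRNA, rRNA or miRNA gene within 200 bp. By chromosome, 4 of 13 genes were bound on I, 4 of 10 on II, 5 of 11 on III, 2 of 4 on IV and 2 of 6 on V. The same counts over all genes are not given for neighbours, small RNA genes or chromosomes, so these are description only.

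Other genes of the cycle, listed by function with earlier results known, were bound in 49 of 173 cases (28.3%), against 9.68% of all protein-coding genes. Replicate 1's list held 29 of the 173, beside 6.91% of all genes, and replicate 2's held 69, beside 13.3%. Most of the 49 had a summit that also lay in another protein-coding gene's window, against 34.6% of all bound protein-coding genes. Of the 49, coh-3 and bmk-1 shared 1 summit. With the nearest 5′ end only, 36 were bound, against 8.06% of all genes. Genes of cohesin and condensin, which hold and fold chromosomes, and of their regulators had the highest share with 10 of 22, led by wapl-1, coh-1 and scc-2. Of the 22, 4 were in replicate 1's list and 13 in replicate 2's. All bound genes of this list except coh-1 and scc-2 had a summit that also lay in another protein-coding gene's window. The wapl-1 summit, at -164 bp with a signal of 419, also lay in the window of the histone variant gene htz-1. Other replication genes had 8 of 33, led by ctf-4 (signal 2183, rank 86, -152 bp), top-2 and dna-2. These 3 summits also lay in the windows of eef-1G, npp-3 and patr-1, in that order. The ORC subunit genes orc-3 and orc-4, which are outside the 45, had no summit in the conservative set or in either replicate's thresholded list.

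Among regulators outside the 45, 12 of 41 were bound. The E2F gene efl-1 had a signal of 2725 (rank 44) in the conservative set, with its summit at -170 bp there and in both replicates' lists. The neuronal kinase gene cdk-5 had a conservative signal of 2759 (rank 41) at -103 bp. The checkpoint kinase gene atm-1 followed with rank 145. The cdk-5 summit also lay in the window of kel-3 and the atm-1 summit in that of F56C11.3. Kinetochore and spindle checkpoint genes had 8 of 28, led by czw-1, knl-3 and kbp-4, and centriole and centrosome genes 5 of 20, led by zyg-1, sas-5 and spd-2. Cytokinesis genes had 5 of 18, led by the anillin gene ani-1 (rank 195), the kinesin gene zen-4 (rank 250) and klp-18. Of these named genes, the summits of czw-1, knl-3, kbp-4, zyg-1, spd-2 and klp-18 also lay in the window of another protein-coding gene. The remaining subunits of the anaphase-promoting complex had 1 of 11, gfi-3, or 9.09%, beside the 9.68% of all genes.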

How the data were processed

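Per the labels, peaks of 2 ChIP-seq replicates were given on the ce11 build. An aligner or peak caller is not given in the sources used here. The authors deposited thresholded and ranked peak lists per replicate and over both, with a score from the irreproducible discovery rate (IDR), capped at 1000, and a signal value per peak on an unstated scale. No conservative peak scored under 830, which in the deposited ranked list goes with a −log10 IDR of at least 2.00, and 24 ranked peaks with such scores are not in the conservative list. Read depth is unknown, so no interval that needs it is given.

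From these lists the summit (start plus deposited offset) was assigned to every gene whose annotated 5′ ends (Ensembl release 115, WBcel235) it lay near (at most 500 bp before or 100 bp past). For each gene the summit of highest signal was used. The assignment was checked with placed positions. Lists of other cell cycle genes held 185 names, of which 12 matched no annotated symbol and were not used. From each list up to 3 bound genes of highest signal are named. The 45 genes and all lists were chosen with earlier results of these data known, so counts are descriptions and no enrichment test was run. Sequence was read 50 bp either side of summits. Alternatives were other peak sets, each replicate's own list, narrower and wider windows, and the nearest or outermost 5′ end. Python 3.11.15 and pandas 2.3.3 were used.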

Additional observations from a re-analysis of the deposited data

How the results depend on the processing

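The 18 bound genes numbered 13 with a narrow window (250 bp before to 50 bp past the 5′ end), 21 with a wide one (1000 and 200 bp), 16 with the nearest 5′ end only, 25 in the other thresholded set, and 18 with the outermost 5′ end or with passing ranked peaks put back. They numbered 7 among the 2074 peaks of highest signal, and 11 to 26 with either replicate left out. The share of all genes was 6.07% with the narrow window, 12.7% with the wide one and 8.06% with the nearest 5′ end only. It was 13.7% in the other thresholded set, 5.19% among the peaks of highest signal, and 6.91% to 13.3% with either replicate left out. With the outermost 5′ end it was 8.84%, and with passing ranked peaks put back 9.7%. The count in both replicates, 11, fell to 7 in the narrow window and was 27 with ranked lists. For all genes the share in both replicates was 6.1% in the thresholded and 21.7% in the ranked lists. The median summit distance was -169 bp with the narrow window and -234 bp among the peaks of highest signal. The other cell cycle genes, 49, numbered 36 with the nearest 5′ end only and 76 in the other thresholded set. They numbered 26 among the peaks of highest signal, and 29 to 69 with either replicate left out. These settings change the peaks, the window or the assignment by construction. Unknown depth limits the reading of absent peaks. No paired analysis was possible because there is 1 group.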
